A study of Mus musculus with 4 samples.

Results

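The 36 genes described here encode the folding machinery of the endoplasmic reticulum (ER), the sensors of ER stress, the *Atf4* arm of the integrated stress response, ER-associated degradation and the Sec61 channel. They were chosen by function and found by gene symbol among the 56748 gene IDs of the count tables. The tables come from direct RNA nanopore sequencing of C2C12 cells, an established mouse myoblast line, kept as myoblasts in growth medium with 10% fetal bovine serum. There were 2 libraries of cells with a scrambled shRNA (scrambled 1 and 2) and 2 libraries of cells with a mix of 3 shRNAs against *Hnrnpl* (knockdown 1 and 2), a gene for an RNA binding protein of the hnRNP family. The cell line carries no other genetic change on the labels, where its genotype is given as WT. Both kinds of cells were transfected with plasmids that also express eGFP and were selected with puromycin at 3 µg/mL. The libraries of a group are different passages of 1 selected stable line, so a line and its shRNA cannot be told apart. The p-values rest on the spread between passages, which is estimated partly from other genes. The labels place scrambled 1 and knockdown 1 in batch 1 and scrambled 2 and knockdown 2 in batch 2.

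Proteins that are secreted or sit in membranes enter the ER through the Sec61 channel, fold there with the help of chaperones, and are returned to the cytosol for degradation if they fail to fold. When unfolded proteins build up, the sensors Ire1 (encoded by *Ern1*), Atf6 and Perk (encoded by *Eif2ak3*) start the unfolded protein response, which raises the transcription of chaperone genes. Perk also phosphorylates the initiation factor eIF2, which lowers translation in general and favors translation of *Atf4*, the transcription factor of the integrated stress response. Myoblasts make collagen and other matrix proteins, and collagen needs chaperones of its own in the ER.

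The libraries held between 1229424 and 1676911 reads counted on genes, and these 36 genes took 0.773% and 0.738% of them in scrambled against 0.776% and 0.668% in knockdown. The counts on *Hnrnpl* itself were 358 and 656 in scrambled against 242 and 258 in knockdown (log2 fold change -0.78, standard error 0.18, with an adjusted p of 0.0112 in edgeR, Benjamini-Hochberg method). The adjusted p of *Hnrnpl* was under 0.05 in 10 of 14 alternatives. It was 0.194 without scrambled 2, where the log2 fold change was -0.48, 0.150 without knockdown 1 in edgeR, and 0.0567 and 0.067 by the Wald and likelihood-ratio tests of DESeq2 with parametric fits. Of the 5 myoblast markers checked, *Vim*, *Des*, *Myf5* and *Cdh15* were well covered, whereas *Myod1* had 1 read in the 4 libraries. *Cdh15*, which encodes M-cadherin, fell by 2.55 on the log2 scale (adjusted p = 2.03e-06), and *Des*, which encodes desmin, fell by 0.56 (adjusted p = 0.0308, edgeR). *Vim* and *Myf5* did not pass, with log2 fold changes of -0.15 (adjusted p = 0.61) and -0.16 (adjusted p = 0.615, edgeR). None of the 5 markers of differentiated muscle had a read, and the summed reads on 5 macrophage, 4 endothelial and 4 adipocyte markers were 7 or fewer per library for each list, with *Ptprc* and *Adgre1* at 0 in all 4 libraries.

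None of the genes passed the test for a difference between knockdown and scrambled. Of the 36 genes, 32 had enough reads for the test, and edgeR called 0 of these 32, where it called 5.55% of the 8670 genes tested (2.33% as higher and 3.22% as lower). A call asked for 3 things at once, an adjusted p below 0.05, a log2 fold change beyond 0.5 in size and more than 10 normalized counts on average. At an adjusted p under 0.05 alone the count was also 0, against 5.95% of all genes (2.51% higher and 3.44% lower). It was 0 too with the replicate block, against 5.81%, and in each of the 4 DESeq2 configurations tried, against 2.79% for its Wald test with a local fit. Unadjusted, 6 of the 32 genes had a p below 0.05 (*Dnajb9*, *Dnajb11*, *Dnajc3*, *Serpinh1*, *Chac1* and *Herpud1*), or 18.8%, against 21.8% of all genes tested. The smallest adjusted p was 0.106, for *Serpinh1*. A p that misses the threshold does not show equal levels, so the intervals are given beside the values. The standard error of the log2 fold changes lay between 0.13 and 0.43. For 27 of the 32 genes the 95% interval lay inside a 2-fold change in either direction, and for 14 of them inside a 1.5-fold change. The exceptions to the first were *Dnajb9*, *Ern1*, *Eif2ak3*, *Trib3* and *Sec61g*, which are among the genes with few reads. The intervals draw partly on the spread of other genes, so they can be narrow for a gene whose own libraries differ. *Atf4* is among the 27 with normalized counts of 320 and 684 in knockdown, and so is *Xbp1* with 196 and 99.3. In bulk RNA, fewer cells with a transcript and less of it per cell cannot be told apart.

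**Figure D1:**
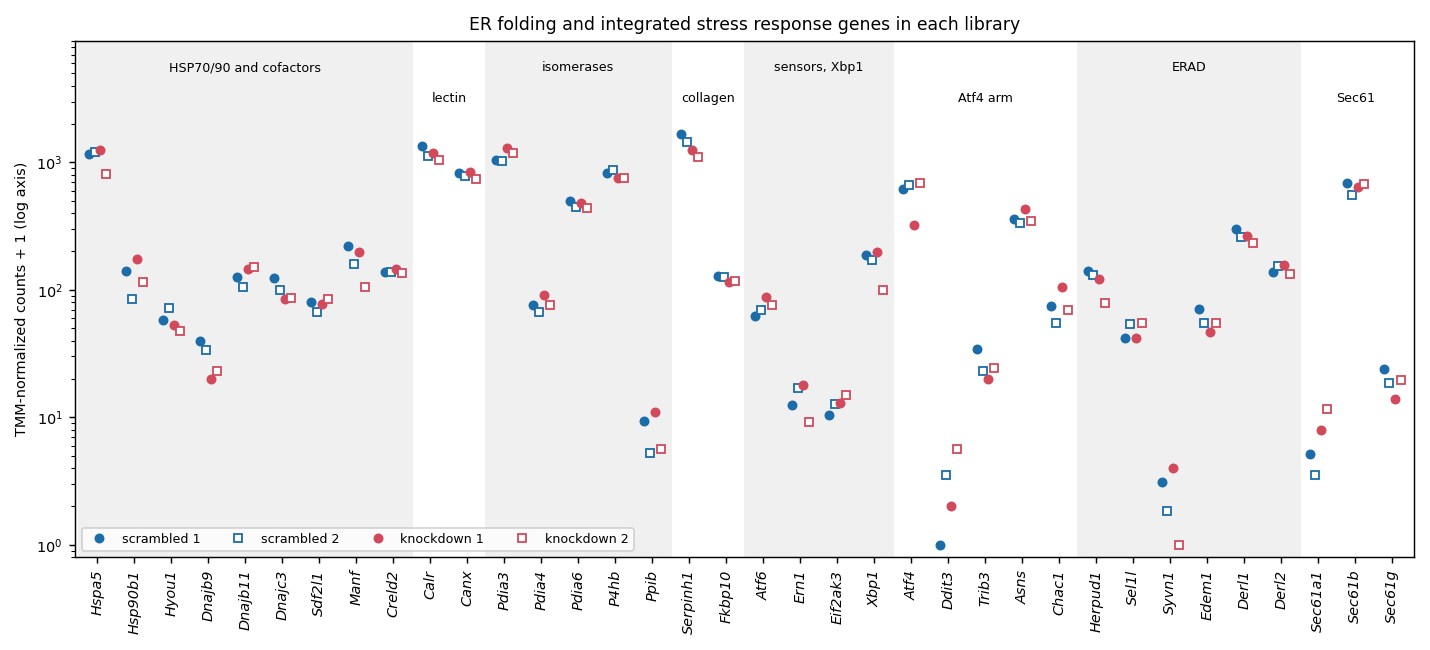
Normalized counts (TMM-scaled, plus 1, on a log axis) of the 36 genes in each of the 4 libraries, grouped by role. Blue marks are scrambled and red marks knockdown, and filled marks are the libraries numbered 1. The marks of the groups lie close together for most genes, and *Ppib*, *Ddit3*, *Syvn1* and *Sec61a1* sit near the bottom.

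The median log2 fold change of the 32 genes was -0.12, and that of all genes tested was close to 0, at -0.00059. With single libraries left out, the median of the 32 lay between -0.13 and 0.0493, positive only without knockdown 2. By the sign of the fitted value, 11 of the 32 (34.4%) lay higher in knockdown and 21 lower, where 49.9% of all genes tested lay higher. *Sel1l*, counted as lower at -0.01, had a slightly higher mean in knockdown. The log2 fold changes of whole chromosomes were shifted, with autosomal medians from -0.37 on chromosome 9 to 0.30 on chromosome 16, and this moved with several of the values. After the median of its chromosome was subtracted from each gene, the median of the 32 was -0.02. Both knockdown libraries lay above both scrambled libraries for 4 of the 32 genes and below both for 8, against 26.4% and 26% of all genes tested. Within batches, 12 of the 32 genes were lower in knockdown in both batches, 9 were higher in both, and the other 11 changed sign between the batches. These counts include near ties. *Edem1* is among the 8 and the 12 with 53.84 in scrambled 2 and 53.76 in knockdown 2. *Sel1l* is among the 9 with a log2 ratio of 0.0005 in batch 1.

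**Figure D2:**
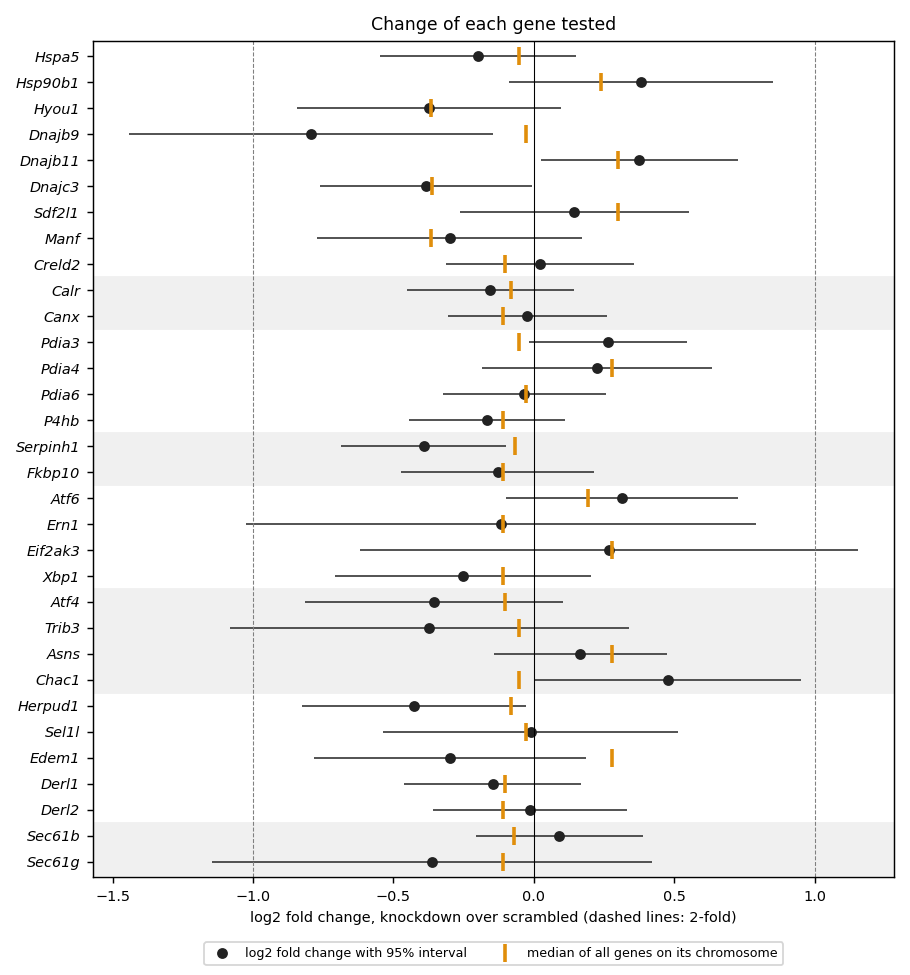
Log2 fold change of knockdown over scrambled (horizontal axis) for the 32 genes that were tested, with 95% intervals from the edgeR fit as lines. Shading separates the roles, orange ticks give the median of all genes on the same chromosome, and dashed lines mark a 2-fold change. Most intervals cross 0, and the values of *Hyou1*, *Dnajc3* and *Dnajb11* lie on or next to the tick of their chromosome.

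Many chaperone genes carry a control element that the sensors act on. To show which of these genes do, windows of 300 bases around the start of the canonical transcript (250 before it and 50 from it on, GRCm39 with GENCODE annotation) were searched on both strands. The ER stress response element, which is CCAAT, then 9 bases of any kind, then CCACG, was found in 8 of the 36 windows (22.2%) and in 0.124% of the windows of 21770 protein coding genes. The ER stress response element II, which is ATTGG, then 1 base of any kind, then CCACG, was found in another 4 (11.1%), against 0.0689%. The 36 genes were chosen by function and their windows are part of the 21770, so these shares describe the list and test nothing. The matches are printed 5′ to 3′ on the strand that reads as the element, with the letters fixed by the element in capitals. *Hsp90b1* has 2 matches and the first is printed, *Hyou1* has 2 matches to element II and the one farther from its start is printed, and *Syvn1*, which had almost no reads, holds the remaining match.

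Hspa5: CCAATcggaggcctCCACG
Hsp90b1: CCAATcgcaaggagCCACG
Dnajc3: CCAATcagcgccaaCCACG
Creld2: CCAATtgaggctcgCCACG
Calr: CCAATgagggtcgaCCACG
Canx: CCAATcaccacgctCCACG
Pdia6: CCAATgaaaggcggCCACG
Hyou1: ATTGGgCCACG
Manf: ATTGGtCCACG
Herpud1: ATTGGgCCACG
Dnajb11: ATTGGcCCACG

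The element of *Hspa5* lies at chr2:34662037-34662055 on the forward strand, starting 67 bases before the transcript start. That of *Calr* lies at chr8:85573704-85573722, also on the forward strand, while *Calr* is transcribed from the reverse strand. The match in *Herpud1* is at chr8:95113005-95113015 on the forward strand, 32 bases before the start. The unfolded protein response element TGACGTGG occurred once, in *Hyou1* at chr9:44290658-44290665, where it overlaps the element II printed above, and in 0.721% of all windows. The core of the element bound by ATF and C/EBP factors, TGATGNAA, was found in *Ddit3*, *Chac1* and *Herpud1* (8.33% of these genes) and in 3.84% of all windows. Of the 12 genes with either ER stress element, 11 were tested, with log2 fold changes from -0.43 to 0.38 and a median of -0.15. The 21 tested genes with neither had a median of -0.12. A match is a stretch of letters and not a measured binding site, and a gene without one in this window may hold one elsewhere.

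Among the HSP70 and HSP90 chaperones, *Hspa5* encodes BiP, the HSP70 of the ER lumen, which also holds the sensors inactive. *Hspa5* (chromosome 2, 34661982 to 34668880) had normalized counts of 1160 in scrambled 1, 1208 in scrambled 2, 1250 in knockdown 1 and 811 in knockdown 2, the order kept for the genes that follow. Knockdown 2 lay below the other 3 libraries, and knockdown 1 above both scrambled libraries. The log2 fold change was -0.20 (standard error 0.17, 95% interval -0.55 to 0.15, adjusted p = 0.528 from edgeR). *Hsp90b1* encodes the HSP90 of the ER and had 140 and 84.1 in scrambled against 173 and 113 in knockdown, so the groups overlapped and in both groups the library numbered 1 was higher. Its log2 fold change was 0.38 (95% interval -0.09 to 0.85, adjusted p = 0.338, edgeR). It moved with the library left out, to 0.78 without scrambled 1 (adjusted p = 0.0246), 0.0327 without scrambled 2 (adjusted p = 0.961), 0.035 without knockdown 1 (adjusted p = 0.961) and 0.64 without knockdown 2 (adjusted p = 0.123, edgeR), and it was 0.14 with chromosome medians removed. Each fit without a library takes the spread from the group that keeps 2 and from other genes, and the lone library is assumed to vary alike.

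*Dnajb9*, which encodes a J-domain partner of BiP, had the largest difference of the 32 genes. Its normalized counts were 38.7 and 32.8 in scrambled against 18.9 and 22.2 in knockdown, and the groups did not overlap. The log2 fold change was -0.79 (standard error 0.31, 95% interval -1.44 to -0.15), with an unadjusted p of 0.0189 and an adjusted p of 0.137 from edgeR. When single libraries were left out it lay between -0.92 and -0.68. *Dnajb9* lies on chromosome 12 (44252341 to 44257171), whose median was -0.03, and it rests on 19 to 39 reads per library. The other J-domain genes did not pass either, and their fitted values lay on opposite sides of 0. *Dnajb11*, whose product brings client proteins to BiP, had 126 and 103 in scrambled against 145 and 151 in knockdown (log2 fold change 0.38, adjusted p = 0.197, edgeR). *Dnajc3*, whose product also serves BiP, had 122 and 99.3 in scrambled against 83.7 and 85.3 in knockdown (log2 fold change -0.38, adjusted p = 0.223, edgeR). Their chromosomes, 16 and 14, had medians of 0.30 and -0.36, and with chromosome medians removed the values were 0.08 and -0.02.

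*Hyou1*, which encodes a large HSP70 relative that exchanges the nucleotide of BiP, had 56.5 and 70.7 in scrambled against 51.8 and 46.7 in knockdown, lower in both knockdown libraries. The log2 fold change of -0.37 (adjusted p = 0.35, edgeR) stood beside a median of -0.37 on chromosome 9. *Manf* lies on the same chromosome and encodes a small secreted protein that binds BiP. It had 221 and 157 in scrambled against 198 and 104 in knockdown (log2 fold change -0.30, 95% interval -0.77 to 0.17), and knockdown 2 was again the lowest library. *Sdf2l1*, whose product works with that of *Dnajb11*, had 79.6 and 66.5 in scrambled against 76.7 and 84.1 in knockdown (log2 fold change 0.14). *Creld2*, a stress-induced ER gene, was the steadiest of this group, with 138 in both scrambled libraries and 144 and 136 in knockdown. Its log2 fold change was 0.02, with a 95% interval from -0.31 to 0.36.

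The lectin chaperones calreticulin and calnexin hold glycoproteins while they fold. *Calr* had 1349 and 1130 in scrambled against 1182 and 1042 in knockdown, and the groups overlapped (log2 fold change -0.15, 95% interval -0.45 to 0.14). *Canx* had 826 and 779 in scrambled against 833 and 746 in knockdown (log2 fold change -0.02, 95% interval -0.31 to 0.26). Both intervals exclude a change of 1.5-fold.

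Disulfide isomerases form and rearrange disulfide bonds. *Pdia3*, whose product works with calnexin and calreticulin, had 1037 and 1020 in scrambled against 1289 and 1182 in knockdown, higher in both knockdown libraries. Its log2 fold change was 0.26 (standard error 0.13, 95% interval -0.02 to 0.55, adjusted p = 0.26, edgeR), or 20.1% higher, and it was 0.31 in batch 1 and 0.21 in batch 2. *P4hb* encodes the isomerase that is also a subunit of the collagen prolyl hydroxylase, and it did not pass either. It had 823 and 870 in scrambled against 757 and 750 in knockdown (log2 fold change -0.17, 95% interval -0.45 to 0.11, adjusted p = 0.5, edgeR). The log2 fold changes of *Pdia4* and *Pdia6* were 0.23 and -0.03, with overlapping groups for both.

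Of the collagen chaperones, *Serpinh1* encodes Hsp47, which binds folded procollagen. *Serpinh1* (chromosome 7, 98994220 to 99005076) had normalized counts of 1656 and 1444 in scrambled against 1254 and 1107 in knockdown, and every knockdown library lay below every scrambled library. The log2 fold change was -0.39 (standard error 0.14, 95% interval -0.69 to -0.10), or 23.8% lower, with an unadjusted p of 0.0116 and an adjusted p of 0.106 from edgeR. It was -0.40 in batch 1 and -0.38 in batch 2, and -0.50 to -0.29 with single libraries left out. Its adjusted p ranged from 0.0415 to 0.477 over 14 alternatives and was under 0.05 in 1, the fit without a filter on low counts. *Fkbp10*, which encodes a proline isomerase for collagen, had 128 and 125 in scrambled against 115 and 117 in knockdown. These groups did not overlap either, but the difference was small, with a log2 fold change of -0.13 (95% interval -0.47 to 0.21).

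The 3 sensors were counted with few to moderate reads. *Atf6*, a sensor that becomes a transcription factor once it is cut in the Golgi, had 61.8 and 68.1 in scrambled against 86.7 and 74.8 in knockdown (log2 fold change 0.31, 95% interval -0.10 to 0.73, adjusted p = 0.373, edgeR). It lies on chromosome 1, whose median was 0.19. *Ern1* had 7 to 19 reads and *Eif2ak3* 9 to 14 reads per library, and their intervals, -1.03 to 0.79 and -0.62 to 1.15, leave a 2-fold change in at least 1 direction possible. *Xbp1*, the transcription factor whose mRNA is spliced by Ire1, had 187 and 169 in scrambled against 196 and 99.3 in knockdown. Knockdown 1 was the highest library and knockdown 2 the lowest, and the log2 fold change was -0.25 (95% interval -0.71 to 0.20, adjusted p = 0.542, edgeR). Counts per gene do not separate the spliced from the unspliced form of *Xbp1*.

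In the *Atf4* arm, *Atf4* (chromosome 15, 80139372 to 80141745) had normalized counts of 612 and 665 in scrambled against 320 and 684 in knockdown. Knockdown 1 lay far below the other 3 libraries, and knockdown 2 was above both scrambled libraries. The log2 fold change was -0.36 (standard error 0.22, 95% interval -0.82 to 0.10, adjusted p = 0.364, edgeR), but it was -0.94 in batch 1 and 0.04 in batch 2. Without knockdown 2 it was -1.0, and without knockdown 1 it was 0.10. Neither of these fits holds the 2.14-fold difference between the knockdown libraries. The response works through translation of *Atf4*, which was not measured here.

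Of the tested genes that *Atf4* activates, *Asns* and *Chac1* had their highest values in knockdown 1, and *Trib3* had its lowest there. *Asns*, which encodes asparagine synthetase, had 356 and 335 in scrambled against 428 and 345 in knockdown (log2 fold change 0.17, 95% interval -0.14 to 0.47). *Chac1*, which encodes an enzyme that degrades glutathione, had 73.3 and 53.8 in scrambled against 105 and 69 in knockdown, and the groups overlapped. Its log2 fold change of 0.48 was the highest of the 32 genes (standard error 0.23, 95% interval 0.00 to 0.95, unadjusted p = 0.0488, adjusted p = 0.226, edgeR). It was 0.13 without knockdown 1, 0.25 without scrambled 2, 0.70 without scrambled 1 and 0.73 without knockdown 2. *Trib3*, a pseudokinase gene that restrains the response, had 33.5 and 21.9 in scrambled against 18.9 and 23.4 in knockdown (log2 fold change -0.37, 95% interval -1.08 to 0.34). With single libraries left out its log2 fold change lay between -0.68 and -0.06. *Ddit3*, which encodes the transcription factor Chop, had 0 and 3 reads in scrambled against 1 and 4 in knockdown and was not tested. By counting error alone, a count of 0 in scrambled 1 allows up to 2.16 CPM (counts scaled to a fixed library size), at 3 counts. This does not bound the level of *Ddit3*, because reads that overlap another gene may have been set aside.

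None of the 5 tested genes of ER-associated degradation passed the test, and all 5 had fitted log2 fold changes below 0, from -0.43 to -0.01. *Sel1l* and *Derl2* turned positive with chromosome medians removed, and *Sel1l* also with the replicate block. *Herpud1*, a stress-induced part of the degradation complex, had 140 and 129 in scrambled against 120 and 78.3 in knockdown, lower in both knockdown libraries. Its log2 fold change was -0.43 (standard error 0.19, 95% interval -0.83 to -0.03, unadjusted p = 0.0374, adjusted p = 0.197, edgeR). It was -0.17 without knockdown 2 and -0.78 without knockdown 1. *Edem1*, which encodes a lectin that marks misfolded glycoproteins, had 69.1 and 53.8 in scrambled against 45.8 and 53.8 in knockdown. On the log2 scale the fold change was -0.30, on chromosome 6, whose median was 0.28. With chromosome medians removed it was -0.57. *Derl1* and *Derl2*, which encode derlins of the export channel, had log2 fold changes of -0.15 and -0.02. *Sel1l*, which encodes the partner of the ubiquitin ligase Hrd1, averaged 46.9 ± 8.6 in scrambled against 47.3 ± 9.13 in knockdown (each SD over n = 2). Its fitted value of -0.01 thus had the opposite sign to the difference of the means, and both were close to no change.

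Of the Sec61 channel, *Sec61b* had 686 and 558 in scrambled against 642 and 681 in knockdown (log2 fold change 0.09, 95% interval -0.21 to 0.39), and *Sec61g* had 13 to 22 reads per library (log2 fold change -0.36, 95% interval -1.14 to 0.42). *Sec61a1*, the gene of the channel pore, had 4 and 3 reads in scrambled against 7 and 9 in knockdown and was not tested.

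Many of these genes were lower in the library numbered 2 of either group. Of the 26 tested genes with a mean normalized count of at least 50, 20 (76.9%) were lower in scrambled 2 than in scrambled 1 and 19 (73.1%) were lower in knockdown 2 than in knockdown 1, where 53.4% and 45.6% of the 4501 genes at that level were. The median log2 ratio of library 2 to library 1 over the 26 genes was -0.15 in scrambled and -0.17 in knockdown, against -0.02 and 0.03 over the 4501. Larger differences were counted at a size of 0.5. Of the 26 genes, 6 lay more than 0.5 lower on the log2 scale in knockdown 2 than in knockdown 1, which is 23.1%, against 3.51% of the 4501. Without a limit on the mean the contrast was smaller, with 7 of the 32 tested genes (21.9%) against 11.1% of the 8670. By sign alone, 62.5% of the 32 were lower in knockdown 2, against 50.1% of the 8670. The 6 genes were *Hspa5*, *Hsp90b1*, *Manf*, *Xbp1*, *Chac1* and *Herpud1*. *Xbp1* was 1.97-fold and *Manf* 1.90-fold higher in knockdown 1, at percentiles 0.2 and 0.355 of these 4501 genes by the ratio of knockdown 2 to knockdown 1, and the other 4 were 1.51-fold to 1.54-fold higher. In the scrambled group, 1 of the 26 genes (3.85%) lay more than 0.5 lower in the library numbered 2, *Hsp90b1*, against 3.73% of the 4501, and whether the groups differ in this was not tested. *Atf4* stood at the opposite end, 2.14-fold higher in knockdown 2, above 99.7% of these genes. The 7 genes that were higher in knockdown 2 were *Atf4* and, by 0.03 to 0.23 on the log2 scale, *Dnajb11*, *Dnajc3*, *Sdf2l1*, *Fkbp10*, *Edem1* and *Sec61b*. In both groups the library numbered 2 is also the one of batch 2, so passage and batch cannot be told apart. Each library is a single passage of the line of its group, and what set them apart was not tested.

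**Figure D3:**
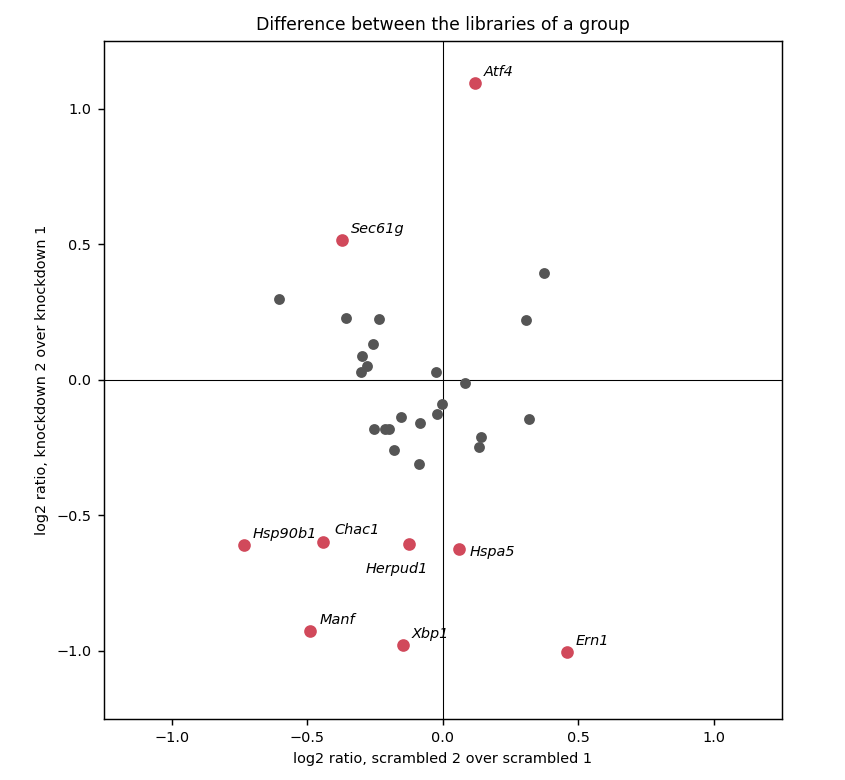
Log2 ratio of library 2 to library 1 in the scrambled group (horizontal axis) and in the knockdown group (vertical axis) for the 32 tested genes, from normalized counts. Red points are the genes whose knockdown libraries differ by more than 0.5. *Xbp1*, *Manf*, *Hspa5*, *Herpud1*, *Chac1* and *Hsp90b1* lie low on the vertical axis and *Atf4* lies at 1.09. *Ern1* and *Sec61g* also pass 0.5 but rest on few reads.

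The 4 genes with too few reads for a test were *Ppib*, *Ddit3*, *Syvn1* and *Sec61a1*. *Ppib*, which encodes cyclophilin B, the proline isomerase that works on collagen with the prolyl hydroxylases, had 8 and 5 reads in scrambled against 10 and 4 in knockdown. *Syvn1*, which encodes Hrd1, had 0 to 3 reads per library. In the annotation, exons of another gene on the opposite strand cover the last 300 exonic bases of the canonical transcript wholly for *Ppib* (*Snx22*) and *Ddit3* (*Mars1* and *Gm4189*), to 53.7% for *Sec61a1* (*Gm44170*) and to 31.3% for *Syvn1*. Of the 32 tested genes, 3 share any of these bases, namely *Hspa5* (100%, with *Rabepk*) and *Pdia3* (90%) with genes on the opposite strand, and *Manf* (4.67%) with *Rbm15b* on its own strand. Between 16.0% and 16.5% of all reads of a library were set aside by the counting because they overlapped more than 1 gene. Reads of direct RNA sequencing begin at the 3′ end, and the strand setting of the counting is not given in the sources used here. The counts of these 4 genes are not read as levels here, and the part of the overlap in them was not tested. Whether reads of *Hspa5* and *Pdia3* were also set aside was not tested, so their counts may fall short of their levels.

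**Figure D4:**
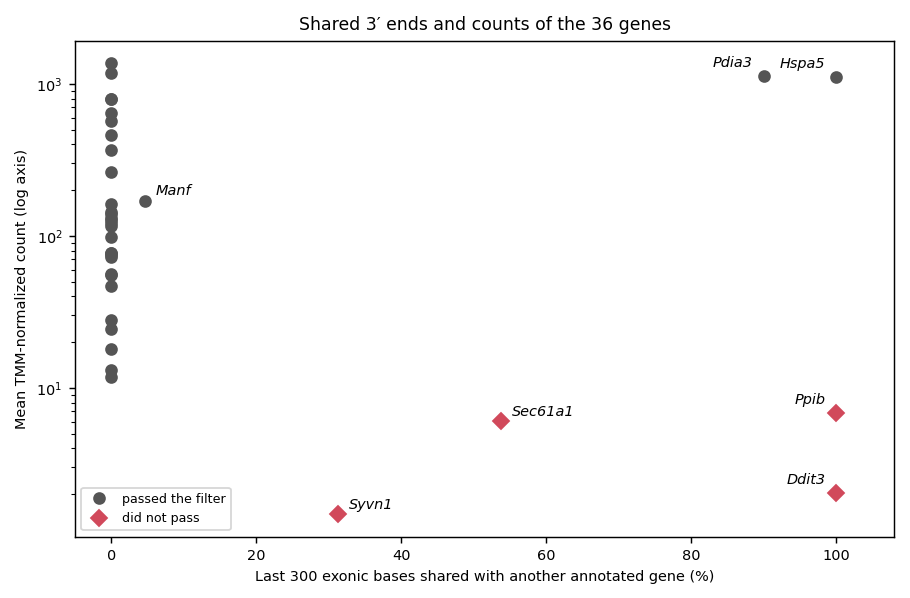
Share of the last 300 exonic bases of the canonical transcript that lie in exons of another annotated gene (horizontal axis, percent) and mean normalized count over the 4 libraries (vertical axis, log axis) for the 36 genes. Diamonds are the 4 genes that did not pass the filter on low counts, which share 31.3% to 100% of these bases. *Pdia3* and *Hspa5* also share most of them and are among the well covered genes.

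Beyond the 36, 122 other genes of the pathway were listed by function, and 114 of them were tested. An adjusted p under 0.05 was reached by 5 of the 114 (4.39%, against 5.95% of all genes), 2 higher and 3 lower in knockdown, and all 5 were also called. The median log2 fold change of the 114 genes was -0.05. None of the 19 tested genes for ER entry, signal peptidase and N-glycosylation passed, and neither did any of the 15 other sensors, eIF2 kinases and eIF2 regulators. The 2 lists had 1 and 2 genes at an unadjusted p under 0.05. Their largest log2 fold changes were 0.31 for *Rpn1*, a subunit of the oligosaccharyltransferase (adjusted p = 0.225), and 1.03 for *Eif2ak1*, the heme-regulated eIF2 kinase, on 5 to 14 reads per library (adjusted p = 0.198, edgeR). The corresponding counts at an adjusted p under 0.05 were 1 of 19 for other ER folding enzymes and chaperones, 1 of 17 for other degradation genes, 2 of 31 for other *Atf4* targets and 1 of 13 for collagen modification and export.

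*Uggt1*, which encodes the enzyme that re-marks unfolded glycoproteins for calnexin, had normalized counts of 80.6 and 68.1 in scrambled against 105 and 132 in knockdown and rose by 0.67 in log2 fold change (standard error 0.19, adjusted p = 0.0400, edgeR). *Selenok*, which encodes a selenoprotein of the ER membrane, had 306 and 335 in scrambled against 214 and 212 in knockdown and fell by 0.59 (standard error 0.15, adjusted p = 0.0216, edgeR). *Plod2*, a collagen lysyl hydroxylase gene, had 132 and 130 in scrambled against 84.7 and 86.5 in knockdown and fell by 0.62 (standard error 0.17, adjusted p = 0.0366, edgeR). For these 3 genes the chromosome moved with the result. With chromosome medians removed, *Uggt1* was at 0.48 (adjusted p = 0.218), *Selenok* at -0.23 (adjusted p = 0.523) and *Plod2* at -0.25 (adjusted p = 0.557, edgeR).

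Both genes called among the other *Atf4* targets kept an adjusted p under 0.05 in that setting. *Cebpb*, a transcription factor gene, had 29.3 and 21.9 in scrambled against 54.8 and 45.6 in knockdown and rose by 0.99 (standard error 0.28, adjusted p = 0.0400, edgeR). *Cth*, which encodes the enzyme that makes cysteine from cystathionine, had 73.3 and 53 in scrambled against 28.9 and 35.1 in knockdown and fell by 0.97 (standard error 0.26, adjusted p = 0.0328, edgeR). Both stayed on their side of 0 with any single library left out, at 0.77 to 1.20 for *Cebpb* and -1.21 to -0.74 for *Cth*. The adjusted p ranged over 14 alternatives from 0.0161 to 0.672 for *Cebpb*, under 0.05 in 7, and from 0.0045 to 0.538 for *Cth*, under 0.05 in 8. For *Uggt1*, *Selenok* and *Plod2* it was under 0.05 in 6, 8 and 5 of 14. With a library left out it stayed under 0.05 for *Uggt1*, *Selenok* and *Cebpb* only without scrambled 1, for *Cth* only without scrambled 2 or knockdown 2, and for *Plod2* in none, where it was 0.0993 to 0.172. Of the 5 genes, only *Selenok* was under 0.05 by DESeq2 (Wald, local fit).

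**Figure D5:**
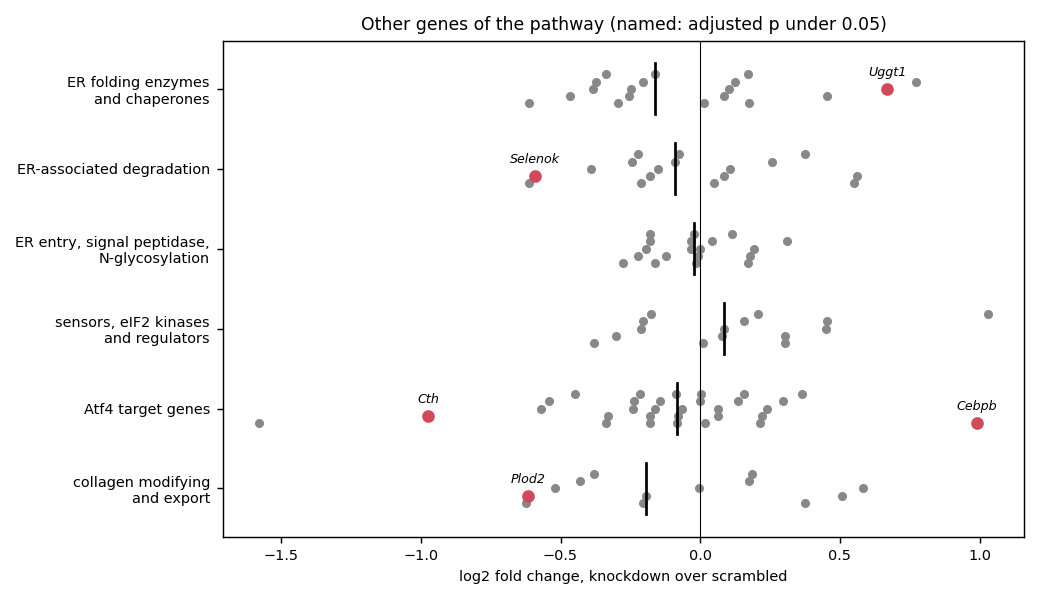
Log2 fold changes of knockdown over scrambled (horizontal axis) for the 114 tested genes of 6 further lists of the pathway, 1 point per gene, with the median of each list as a black bar. Red points with names are the 5 genes with an adjusted p under 0.05 from edgeR. The list medians lie between -0.20 and 0.08.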

How the data were processed

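The authors used guppy for basecalling, minimap2 2.17 for alignment to GRCm39 and HTSeq 0.9.1 for counting by gene (versions from the submitters' processing notes). The deposited files hold whole counts per gene ID without normalization. Reads not assigned to a gene, between 42.2% and 43.5% of a library, were left out. The annotation release behind the counts is not given in the sources used here, and GENCODE vM39 gave symbols and positions for 56017 of the 56748 gene IDs. *Ddit3* has a second ID, which had no reads.

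The quasi-likelihood test of edgeR 4.0.16 (under R 4.3.3) was used for knockdown against scrambled, with TMM normalization, filterByExpr and Benjamini-Hochberg adjustment over the 8670 genes tested. The test takes the spread of a gene partly from that gene and partly from other genes. Intervals are 95% intervals from its standard errors. Normalized counts were TMM-scaled to the mean library. With 2 libraries a group, the smallest p of an exact permutation test is 0.333. DESeq2, which the authors used in a slightly later version, was run here in version 1.42.0 as an alternative. It had 4 configurations (Wald or likelihood-ratio test, local or parametric fit). Other alternatives were RLE factors, no filter on low counts, a minimum of 10 counts in each library, legacy = FALSE in edgeR, chromosome medians removed, each library left out, and the replicate block.

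Replicate numbers pair the libraries by the batch on the labels. Between the groups, the correlation of the within-group deviations of same-numbered libraries was 0.00325 over 4501 genes with a mean normalized count of at least 50, and the block changed the call of none of the 36 genes and of none of the 5 pathway genes past the threshold.

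The genes and lists were chosen with earlier results of these data known. All 36 genes are named, and from the other lists each gene with an adjusted p under 0.05, or else the gene with the largest absolute log2 fold change. The 6 genes that differ between knockdown libraries, and the genes in the closing section, were chosen after their values were seen. Promoter windows and motif matches came from the GRCm39 genome. Transcript forms were not analysed here.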

Additional observations from a re-analysis of the deposited data

How the results depend on the processing

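The 36 genes gave no call in 10 alternatives with all 4 libraries, the replicate block included, and 0 to 1 with a library left out (*Hsp90b1* without scrambled 1, *Atf4* without knockdown 2). Over all genes, 481 calls became 228 (Wald, local), 115 (Wald, parametric), 222 (likelihood ratio, local) and 112 (likelihood ratio, parametric) in DESeq2, 285 with chromosome medians removed, 484 with the replicate block, and 194 to 433 with a library left out, the lowest without knockdown 1. The 5 further pathway genes became 8 without a filter, 1, 0, 1 and 0 in the same DESeq2 order, 2 with chromosome medians removed, 6 with the block, and 0 to 5 with a library left out (0 without knockdown 1, 3 without scrambled 2). The median log2 fold change of the 32 tested genes lay between -0.13 and 0.0493 with a library left out, positive only without knockdown 2. With chromosome medians removed the sign turned for *Sdf2l1* (-0.15), *Manf* (0.0662), *Canx* (0.0861), *Pdia4* (-0.0519), *Eif2ak3* (-0.00596), *Asns* (-0.11), *Sel1l* (0.0158) and *Derl2* (0.0938), and with the replicate block for *Sel1l* (0.0114). With a library left out it turned for 12 genes, with ranges of -0.55 to 0.0768 for *Hspa5*, -0.85 to 0.0759 for *Manf*, -0.0262 to 0.0636 for *Creld2*, -0.11 to 0.0525 for *Canx*, -0.12 to 0.0416 for *Pdia6*, -0.76 to 0.28 for *Ern1*, -0.84 to 0.14 for *Xbp1*, -1.0 to 0.0979 for *Atf4*, -0.00135 to 0.31 for *Asns*, -0.21 to 0.19 for *Sel1l*, -0.15 to 0.0973 for *Derl2* and -0.0603 to 0.24 for *Sec61b*. Of the 32 genes, 17 turned sign in none of the 14 alternatives. The causes were not tested. The intervals of *Dnajb9*, *Ern1*, *Eif2ak3*, *Trib3* and *Sec61g* include a 2-fold change, and 4 genes had too few reads for a test. With a library left out, 1 group has a single library, which is assumed to vary like the other group.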

Other observations

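Several other genes of the pathway lists had an unadjusted p under 0.05 without passing the adjusted threshold, 20 of the 114 tested (17.5%, against 15.9% of all genes tested), 10 higher and 10 lower in knockdown. The 8 with an adjusted p under 0.1 are given here, 3 higher and 5 lower, a limit set after their values were seen. *Atf3*, a stress-induced transcription factor gene, had normalized counts of 14.7 and 11.8 in scrambled against 4.98 and 3.51 in knockdown (log2 fold change -1.58, standard error 0.51, adjusted p = 0.0744, edgeR). *Atf5*, whose translation is also favored when eIF2 is phosphorylated, had 176 and 209 in scrambled against 99.6 and 162 in knockdown (log2 fold change -0.57, adjusted p = 0.0927, edgeR). *Tars1*, which encodes the tRNA ligase for threonine, had 336 and 326 in scrambled against 191 and 265 in knockdown (log2 fold change -0.54, adjusted p = 0.0530, edgeR). For *Atf5*, *Tars1* and, narrowly, *Psat1*, as for *Atf4*, knockdown 1 was the lowest of the 4 libraries. In contrast, *Asns*, *Chac1* and *Cebpb* were highest there, and *Atf3* was lowest in knockdown 2. The share of *Atf4* targets with this order was not counted. *Psat1*, which encodes an enzyme of serine synthesis, had 1546 and 1206 in scrambled against 1000.3 and 1013 in knockdown (log2 fold change -0.45, adjusted p = 0.0742, edgeR). Its log2 fold change lay between -0.63 and -0.26 with single libraries left out.

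Outside the *Atf4* targets, *Calu*, which encodes the calcium binding protein calumenin, had 327 and 347 in scrambled against 476 and 446 in knockdown (log2 fold change 0.45, adjusted p = 0.0580, edgeR). *Kdelr3*, which encodes a receptor that returns proteins to the ER, had 114 and 104 in scrambled against 78.7 and 61.9 in knockdown (log2 fold change -0.62, adjusted p = 0.0559, edgeR). *Faf2*, which encodes a membrane protein of the degradation pathway, had 70.1 and 63.1 in scrambled against 106 and 89.99 in knockdown (log2 fold change 0.56, adjusted p = 0.0870, edgeR). *Mia3*, which encodes a protein for the export of collagen from the ER, had 52.4 and 57.2 in scrambled against 81.7 and 83.0 in knockdown (log2 fold change 0.58, adjusted p = 0.0932, edgeR). With chromosome medians removed, the log2 fold changes were -1.77 for *Atf3*, -0.50 for *Atf5*, -0.44 for *Tars1*, -0.22 for *Psat1*, 0.18 for *Calu*, -0.52 for *Kdelr3*, 0.34 for *Faf2* and 0.39 for *Mia3*, and the adjusted p lay from 0.0632 (*Atf3*) to 0.635 (*Calu*) in edgeR.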
